A study of Homo sapiens with 4 samples.

Results

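The BTG and TOB genes encode a small family of antiproliferative proteins, and their RNA was measured in human SY5Y neuroblastoma cells treated with SGSS05-NS or with the solvent DMSO. The 5 genes described are BTG1, BTG2, BTG3, TOB1 and TOB2, out of 16468 genes tested and 57820 gene rows in the counts. They were chosen by name, as family members, with their fold changes between SGSS05-NS and DMSO in these same libraries already known. Their fold changes in that contrast are therefore given as a description, and nothing is drawn from a test of them.

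The proteins share an amino-terminal BTG domain, which binds the CNOT7 and CNOT8 deadenylases of the CCR4-NOT complex and so ties the family to shortening of poly(A) tails and decay of mRNA. TOB1 and TOB2 also carry carboxy-terminal motifs that bind the cytoplasmic poly(A)-binding protein PABPC1. High levels of these proteins slow entry into S phase, and BTG2 is known to mark neural progenitors turning to differentiation.

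SY5Y is an established neuroblastoma line, labelled MYCN wild type. The labels give 2 libraries from cells kept 12 h in 3 µM SGSS05-NS and 2 from cells kept 12 h in DMSO. The study names the compound SGSS05-NS3, a covalent inhibitor of the histone lysine methyltransferase SETD8 (gene KMT5A). Its discussion also lists SGSS05-NS among related compounds, and the labels do not settle whether the 2 names mean the same compound. The study also reports inhibition of other methyltransferases at low micromolar concentrations. Its methods state another dose for SY5Y cells, while its figure legends give the 3 µM of the labels. The methods describe the libraries as independent biological replicates. By the labels both groups have the same genotype and differ in the treatment alone, and no sample of another line or time entered the comparison. All libraries come from 1 cell line, so the p-values measure the spread between cultures of that line.

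Between 21463105 and 25350204 fragments per library fell on genes. Of 8 neuroblastoma markers, 7 were at 1 CPM (TMM-normalized counts scaled to the size of each library) or more in every library, and TH, the tyrosine hydroxylase gene, had between 0 and 2 counts. The summed level of the 8 markers was 2747 and 2960 CPM with DMSO and 1730 and 1521 CPM with SGSS05-NS. The markers SOX10 (Schwann cells), DCN (fibroblasts), HBB (blood) and KRT8 (epithelium) were at 0 in every library, while some other markers of these lists were present. Among the mesenchymal or Schwann markers, TWIST1 was at 152 and 168 CPM with DMSO and 99.8 and 87.0 CPM with SGSS05-NS. VIM went the other way, from 37.7 and 36.8 CPM with DMSO to 57.1 and 52.2 CPM with SGSS05-NS. The summed level of the 6 mesenchymal or Schwann markers, 2 of which reached 1 CPM in every library, was 191 and 207 CPM with DMSO and 158 and 140 CPM with SGSS05-NS. The summed level of the 4 fibroblast markers, 1 of which reached 1 CPM in every library (PDGFRB), was 72.7 and 78.0 CPM with DMSO and 53.7 and 45.7 CPM with SGSS05-NS. The 2 blood markers summed to at most 0.0399 CPM in every library, and the 2 epithelial markers to 1.47 and 1.58 CPM with DMSO and 2.39 and 3.57 CPM with SGSS05-NS, all from EPCAM. Uniquely mapped fragments in no annotated exon of the counted strand were 12.4% and 12.3% with DMSO and 16.1% and 15.3% with SGSS05-NS. These are shares of all fragments, unmapped and multimapping ones included. The part of these differences in the results below was not tested. The RNA is from bulk cultures, in which fewer expressing cells and less RNA per cell cannot be told apart.

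All 5 genes had more RNA with SGSS05-NS than with DMSO. Their counts summed to 110.7 ± 5.71 CPM in DMSO cells and 333.9 ± 4.12 CPM after SGSS05-NS (SD, n = 2 each), a 3.02-fold difference. In the fit across all genes, 6.37% of the genes tested were called higher at an adjusted p under 0.001 (edgeR's quasi-likelihood test, Benjamini-Hochberg adjustment), and the 5 genes are among them by their selection. A further 8.14% of all genes were called lower. In all 5, both SGSS05-NS libraries lay above both DMSO libraries, which was the case for 37.8% of all genes tested. The median log2 fold change was 1.34 over the 5 genes and 0.01 over all genes. Since the genes were selected on this contrast, these counts restate the selection and nothing is read from them.

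**Figure D1:**
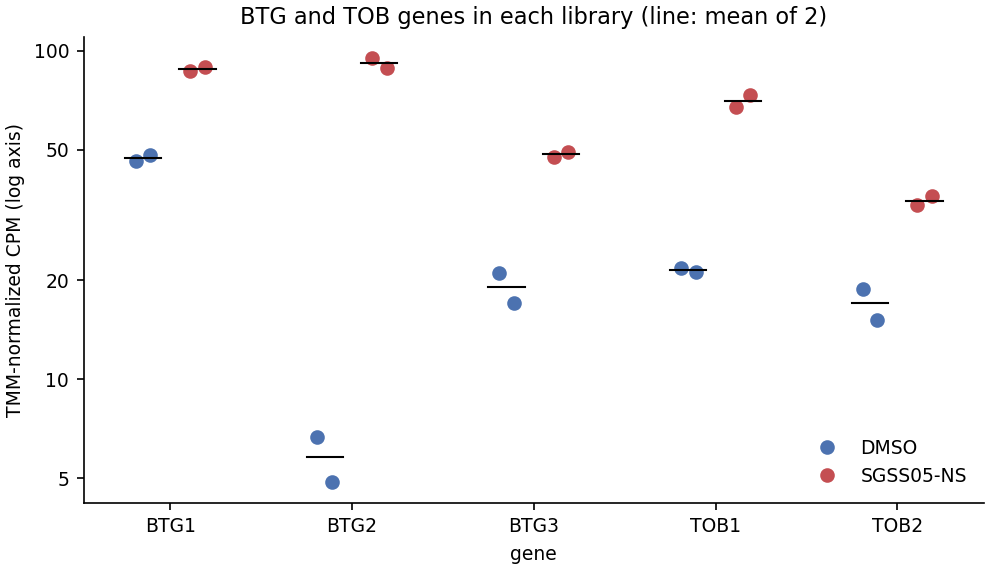
TMM-normalized CPM on a log axis (vertical) for each of the 5 genes (horizontal), with 1 point per library, DMSO in blue and SGSS05-NS in red, and a line at the mean of the 2 libraries. The red points lie above the blue points for every gene, and the gap is widest for BTG2, which goes from a mean of 5.79 to 91.9 CPM.

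BTG2 and BTG1 are the short members, of 158 and 171 residues, and are each other's closest relative, with 65.8% identical residues over their alignment. They bracketed the fold changes of the family, BTG2 at the top and BTG1 at the bottom.

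BTG2 (ENSG00000159388.5, chr1:203274619-203278730 on the plus strand of GRCh37) is an immediate early gene with 2 exons. Its level was 6.70 and 4.88 CPM in the DMSO libraries and 95.3 and 88.6 CPM in the SGSS05-NS libraries. Both SGSS05-NS libraries were far above both DMSO libraries, with no overlap. The lowest SGSS05-NS library was 13.2-fold above the highest DMSO library. The fitted log2 fold change was 3.98 ± 0.140 (SE), or 15.8-fold. BTG2 ranked 64 by fold among all genes tested. The DMSO libraries rested on 168 and 114 counts and differed from each other 1.37-fold, the widest gap within a group in the family.

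BTG1 (ENSG00000133639.3, chr12:92534054-92539622 on the minus strand of GRCh37), the other short member, is known as a B-cell translocation gene and as a gene of quiescent cells. Its level was 46.3 and 48.2 CPM with DMSO and 86.8 and 89.2 CPM with SGSS05-NS. Its libraries differed little within each group, and the groups did not overlap. The log2 fold change was 0.90 ± 0.092 (SE), or 1.86-fold, the smallest of the 5. The mean went from 47.3 ± 1.39 to 88.0 ± 1.71 CPM (SD, n = 2 each).

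The promoters of this pair are shown because the genes code for the most similar short proteins and stand at opposite ends of the fold changes. Each is 300 bases of the strand of the gene, 5′ to 3′, from 250 bases before the start of transcription to 50 after it, taken from RefSeq on GRCh38.p14. BTG1 is chr12:92145797-92146096 on the minus strand and BTG2 is chr1:203305269-203305568 on the plus strand. Capitals mark, on either strand, the matches to the motifs searched: FOXO TGTTTAC, CRE half-site TGACGT, GC box GGGCGG, the CCAAT box and the TATA box TATAAA.
BTG1: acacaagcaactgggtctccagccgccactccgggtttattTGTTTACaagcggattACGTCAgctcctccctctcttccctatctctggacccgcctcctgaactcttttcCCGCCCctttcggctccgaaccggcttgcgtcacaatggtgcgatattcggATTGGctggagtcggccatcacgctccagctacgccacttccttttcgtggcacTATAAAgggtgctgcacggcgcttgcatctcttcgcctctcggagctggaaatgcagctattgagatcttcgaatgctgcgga
BTG2: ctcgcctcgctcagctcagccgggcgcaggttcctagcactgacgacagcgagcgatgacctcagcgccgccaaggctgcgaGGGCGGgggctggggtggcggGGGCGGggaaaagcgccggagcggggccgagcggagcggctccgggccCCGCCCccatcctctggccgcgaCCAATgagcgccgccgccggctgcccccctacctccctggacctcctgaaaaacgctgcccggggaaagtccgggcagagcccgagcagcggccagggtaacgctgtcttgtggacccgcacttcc
The BTG1 window held, in order, a FOXO match 209 bases before the start, a CRE half-site at 193, a GC box, a CCAAT on the minus strand at 87 and TATAAA at 33. The BTG2 window held 3 GC boxes and CCAAT at 76 bases before the start, and no TATAAA. Bases G and C made up 56.0% of the BTG1 window and 73.3% of the BTG2 window, against a median of 58.7% over 35116 promoters of 27305 genes.

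The long members divide into TOB1 and TOB2, of 345 and 344 residues and 66.2% identical, and BTG3, of 296 residues in its longest coding transcript. Identity between BTG3 and the other 4 lay between 25.5% and 43.1%.

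TOB1 (ENSG00000141232.4, chr17:48939584-48945339 on the minus strand of GRCh37), known as a transducer of ERBB2 and a repressor of T-cell activation, had the largest fold change after BTG2. Its level was 21.8 and 21.3 CPM with DMSO and 67.4 and 73.5 CPM with SGSS05-NS. The DMSO libraries were nearly equal and both SGSS05-NS libraries stood well above them. The log2 fold change was 1.71 ± 0.102 (SE), or 3.27-fold.

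TOB2 (ENSG00000183864.4, chr22:41829498-41842805 on the minus strand of GRCh37) is its paralog and binds the same deadenylases. Its level was 18.9 and 15.2 CPM with DMSO and 33.9 and 36.1 CPM with SGSS05-NS. The groups did not overlap, and the lowest SGSS05-NS library was 1.80-fold above the highest DMSO library, the same ratio as for BTG1. The log2 fold change was 1.04 ± 0.126 (SE), or 2.05-fold.

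BTG3 (ENSG00000154640.10, chr21:18965971-18985263 on the minus strand of GRCh37), also known as ANA, binds E2F1 and the checkpoint kinase CHK1. Its level was 21.1 and 17.1 CPM with DMSO and 47.6 and 49.4 CPM with SGSS05-NS. As for TOB2, the first DMSO library was the higher of the pair, and both lay below the SGSS05-NS libraries. The log2 fold change was 1.34 ± 0.120 (SE), or 2.54-fold.

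Within the SGSS05-NS group the libraries of a member differed between 1.03-fold and 1.09-fold, and within DMSO between 1.02-fold and 1.37-fold. Leaving out 1 library at a time gave log2 fold changes between 0.86 and 0.91 for BTG1, 3.76 and 4.22 for BTG2, 1.18 and 1.50 for BTG3, 1.65 and 1.76 for TOB1, and 0.87 and 1.19 for TOB2.

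Levels can be compared between genes only per length, here as CPM per kb of the union of annotated exons. With DMSO the order was BTG1 at 9.73 ± 0.286 CPM per kb, TOB1 at 8.54 ± 0.148, BTG3 at 8.28 ± 1.23, TOB2 at 3.93 ± 0.602 and BTG2 at 2.10 ± 0.466 (SD, n = 2 each). The TOB1 libraries, 8.65 and 8.44, lay inside the range of BTG3, 9.15 and 7.41, so these neighbours did not differ beyond their spread. BTG1, TOB1 and BTG3 stood above 69.3% or more of the genes tested per kb, TOB2 above 51.5% and BTG2 above 38.4%.

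With SGSS05-NS the order per kb was BTG2 at 33.3 ± 1.70, TOB1 at 27.9 ± 1.71, BTG3 at 21.1 ± 0.546, BTG1 at 18.1 ± 0.352 and TOB2 at 8.07 ± 0.353 CPM per kb (SD, n = 2 each), and no neighbouring pair of genes overlapped. BTG2 went from 6.41 ± 1.00% of the summed per-length level to 30.7 ± 1.93%, while the share of TOB1 was 26.3 ± 1.29% and 25.7 ± 1.28% (SD, n = 2 each). BTG1 went from 30.0 ± 2.86% to 16.7 ± 0.130% and BTG3 from 25.3 ± 2.09% to 19.4 ± 0.278%. TOB2, the smallest part with SGSS05-NS, went from 12.0 ± 1.05% to 7.43 ± 0.239%. The summed level per kb was 3.33-fold higher with SGSS05-NS, 108.5 ± 1.26 against 32.6 ± 2.16 CPM per kb (SD, n = 2 each).

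**Figure D2:**
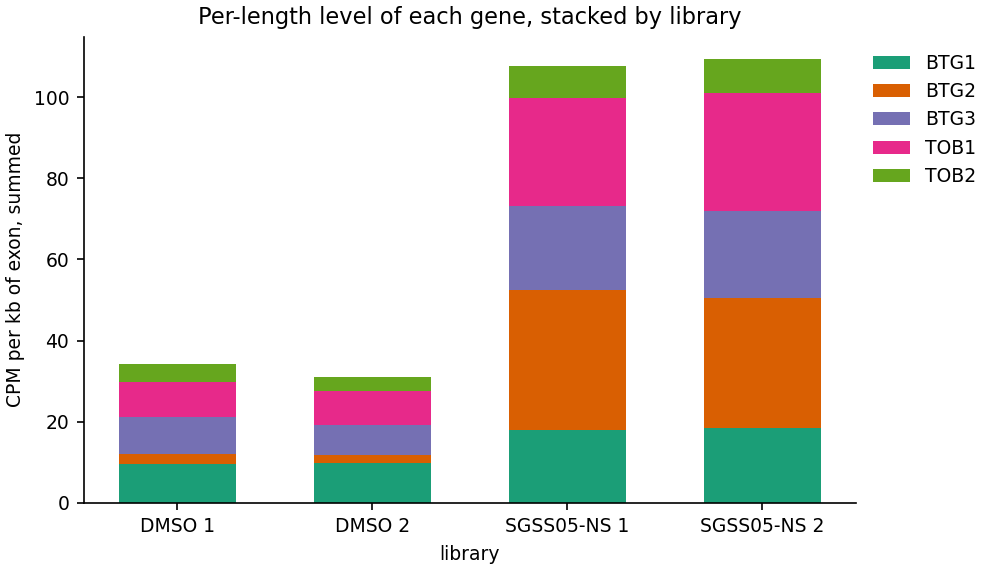
CPM per kb of exon (vertical) in each of the 4 libraries (horizontal), stacked by gene. The stacks rise from a mean of 32.6 to 108.5 CPM per kb, and the BTG2 segment grows from 6.41% to 30.7% of the stack.

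These shares rest on the length assigned to each gene. With the length of the longest coding transcript in its place, BTG3 held 33.1% and BTG1 26.5% with DMSO, which exchanges the order of these genes. With SGSS05-NS, BTG2 then held 27.0%, BTG3 26.2% and TOB1 25.2%, which exchanges the order of BTG3 and TOB1. The lengths come from a newer annotation than the one counted, so a gene whose annotation has since grown is understated per length and one whose annotation has shrunk is overstated.

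Genes at the same loci were counted separately on each strand. BTG1-DT starts 273 bases from BTG1 on the opposite strand and overlaps it by 274 bases; it had 4 and 10 counts with DMSO and 19 and 21 with SGSS05-NS, a log2 fold change of 1.58 ± 0.45 (SE) that did not pass the threshold (edgeR adjusted p = 0.013). BTG2-DT starts 176 bases from BTG2 on the opposite strand, without overlap, and had 3 and 3 counts with DMSO and 11 and 11 with SGSS05-NS. The ratio was 3.88 with a 95% exact binomial interval from 1.53 to 11.7 that covers counting error only, and it did not pass the threshold (edgeR adjusted p = 0.0096). Both divergent transcripts were thus rare, at under 1 CPM in every library, and their values were higher with SGSS05-NS in each library.

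TOB1-AS1 overlaps the 5′ part of TOB1 by 1300 bases on the opposite strand. Its counts were 54 and 38 with DMSO and 62 and 47 with SGSS05-NS, which overlap (log2 fold change 0.33 ± 0.27 SE, edgeR adjusted p = 0.33). LINC01619, a long RNA on the same strand as BTG1 that overlaps it by 2637 bases, had 55 and 62 counts with DMSO and 65 and 55 with SGSS05-NS (edgeR adjusted p = 0.71). BTG3-AS1, opposite BTG3, and ENSG00000289841, opposite TOB2, were not among the genes counted. Fragments in any exon shared by BTG1 and LINC01619 would have been assigned to neither gene, by the same rule in all libraries.

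**Figure D3:**
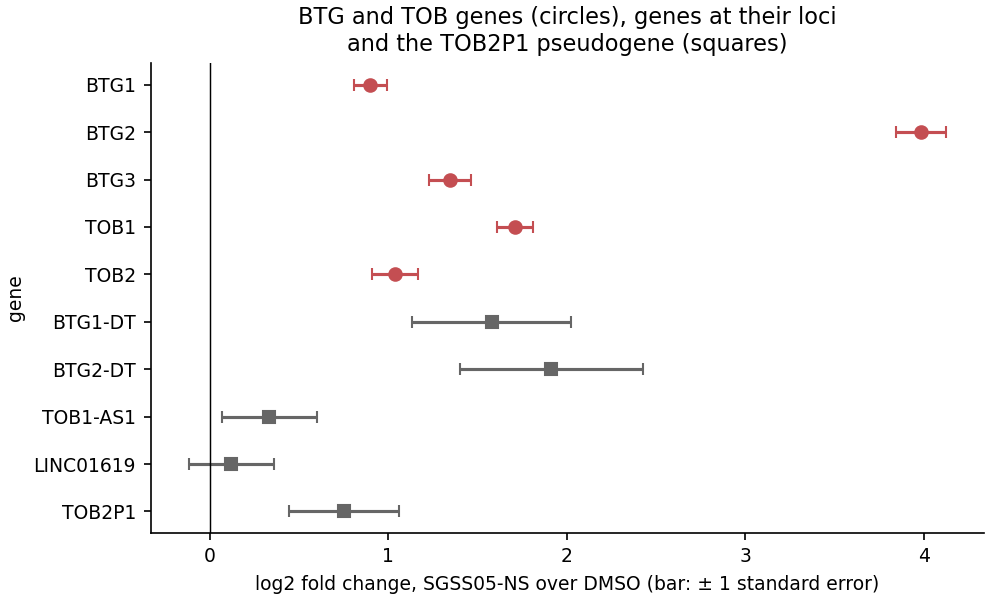
Log2 fold change of SGSS05-NS over DMSO (horizontal, bars of 1 SE) for the 5 genes (red circles) and for the transcripts at their loci and the TOB2P1 pseudogene (grey squares). BTG2 stands apart at 3.98, the divergent transcripts BTG1-DT and BTG2-DT have wide bars, and TOB1-AS1 and LINC01619 lie near 0.

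Of the other annotated genes named BTG or TOB, BTG4, an oocyte gene, had 0 counts in every library, which allows a level of up to 0.119 to 0.135 CPM (3 counts) depending on the library. The pseudogenes BTG3P1 and BTG4P1 also had 0 counts. BTG1P1 had between 2 and 6 counts and TOB2P1 34 and 19 counts with DMSO and 44 and 40 with SGSS05-NS (log2 fold change 0.75 ± 0.31 SE, edgeR adjusted p = 0.064). Reads that match a gene and a pseudogene equally well were not counted for either.

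The 6 promoters of the 5 genes, 2 of them for the 2 annotated starts of TOB1, were searched on both strands for short motifs. The TOB1 starts are numbered by position on the chromosome. As TOB1 is on the minus strand, the second start lies upstream of the first. No member promoter held a CArG box, found in 1.29% of all promoters, nor AP-1 TGANTCA, found in 7.71%. The same was true of CRE TGACGTCA at 1.85% of all promoters, the heat shock element GAANNTTC at 6.77% and CARE TGATGNAA at 3.62%. The absence of a match says only that these letters are not in these windows.

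GC boxes were in 5 of the 6 promoters, against 45.0% of all promoters, and CCAAT in 3 (BTG1, BTG2 and the first start of TOB1), against 34.6%. The antioxidant response element TGACNNNGC was in that of TOB2 alone, against 13.3% of all promoters. FOXO TGTTTAC, the CRE half-site and TATAAA were in that of BTG1 alone, against 3.42%, 7.98% and 11.5%. The window of BTG3 had 77.3% G and C, those of the TOB1 starts 78.7% and 41.3%, and that of TOB2 68.7%. The second TOB1 start thus stood apart in composition, and it held none of the motifs named here.

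**Figure D4:**
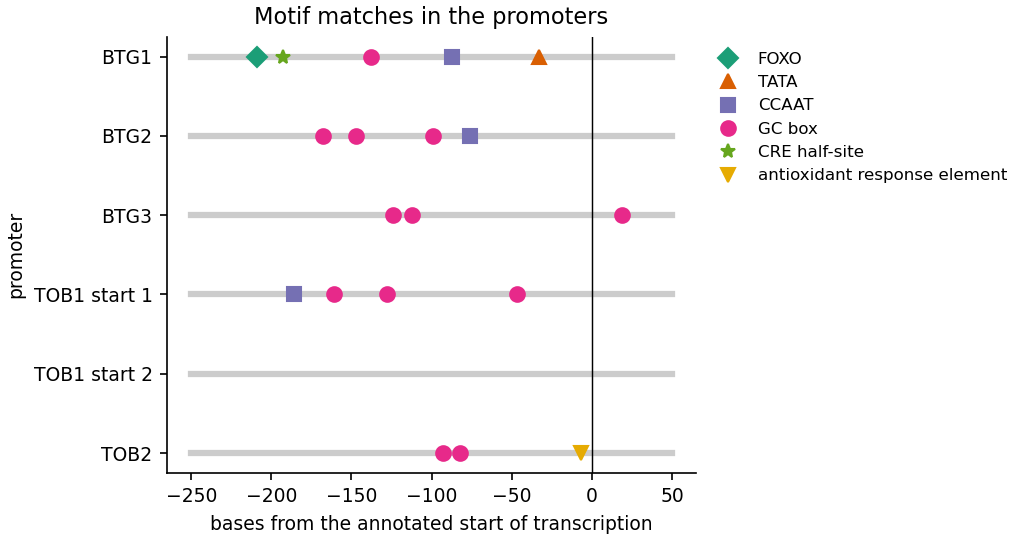
Position of each motif match (horizontal, bases from the annotated start of transcription, with the vertical line at the start) in the 6 promoters. GC boxes recur in 5 of them, and the FOXO, CRE half-site and TATA matches are in that of BTG1.

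After the stop codon the transcripts differ in length and in AU-rich pentamers. The longest coding transcript of BTG3 had 440 bases after the stop codon with 3 ATTTA, and that of TOB1 757 bases with 4. These are 6.82 and 5.28 ATTTA per kb, above 96.5% and 92.3% of the genes with at least 100 bases after the stop codon. The median of those genes was 1.65 per kb. BTG1 had 5 ATTTA in 3802 bases, BTG2 2 in 2164 and TOB2 3 in 2817, or between 0.924 and 1.32 per kb, below that median.

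BTG1 was the only member with TGTANATA, the element bound by Pumilio proteins, which 26.4% of 19222 genes held at least once. Its transcript held 4 matches after the stop codon, and those of the other 4 genes held none.

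The members also had short genes. Their spans on the genome were between 4112 bases for BTG2 and 19293 bases for BTG3, and the median over 16042 genes tested was 25652 bases. Among the genes tested, 17.9% were shorter than BTG2, 21.4% shorter than BTG1, 21.7% shorter than TOB1, 35.1% shorter than TOB2 and 43.2% shorter than BTG3.

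The subunits of the deadenylase complex that the family binds had fold changes near those of all genes. This list and the lists below were chosen with earlier results of these data known, so their counts and shares are a description. Of the 11 genes of the CCR4-NOT complex, none passed the threshold in either direction by edgeR's quasi-likelihood test. Of all genes, 6.37% were called higher and 8.14% lower, and a count of 0 in a list this short lies near those shares. The median log2 fold change of the complex was -0.09, against 0.01 over all genes. At a looser adjusted p under 0.05, 0 genes of the complex were higher and 1 was lower. Over all 16468 genes, the same cutoff called 3728 higher and 3903 lower. Here and in the lists below, the other tests used an adjusted p under 0.001. In the complex the likelihood ratio test called 1 lower, and DESeq2 and limma voom called 0. Over all genes these tests called, in that order, 2022, 1126 and 1005 higher and 2267, 1576 and 1306 lower. Without the first SGSS05-NS library, 1 gene of the complex was called lower.

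CNOT7, the catalytic subunit that the BTG domain binds, was at 189.8 and 212.9 CPM with DMSO and 171.2 and 182.5 CPM with SGSS05-NS (log2 fold change -0.19 ± 0.098 SE, edgeR adjusted p = 0.14). CNOT8, its paralog, was at 102.6 and 101.0 CPM with DMSO and 103.9 and 107.2 CPM with SGSS05-NS (0.05 ± 0.090 SE, edgeR adjusted p = 0.67). The scaffold CNOT1 was at -0.25 ± 0.10 (SE, log2 fold change, edgeR adjusted p = 0.057). CNOT2, a core subunit, had the lowest value of the list, -0.44 ± 0.093 (SE, log2 fold change, edgeR adjusted p = 0.0023), and CNOT4, a ubiquitin ligase of the complex, the highest, 0.27 (log2 fold change, edgeR adjusted p = 0.072).

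Of 13 poly(A)-binding proteins and other deadenylases, 1 rose and none fell, or 7.69% and 0% of the list against 6.37% and 8.14% of all genes. Without the second DMSO library 2 were called higher, and without the second SGSS05-NS library 1 was called lower. The gene that rose, NOCT, encodes a circadian protein of the deadenylase fold, and went from 14.6 and 17.1 CPM with DMSO to 26.8 and 27.6 CPM with SGSS05-NS (log2 fold change 0.78 ± 0.12 SE, edgeR adjusted p = 3.3e-04). PABPC1, bound by TOB1 and TOB2, was at 559.8 and 853.9 CPM with DMSO and 876.3 and 927.9 CPM with SGSS05-NS, a wide spread in DMSO (0.35 ± 0.15 SE, edgeR adjusted p = 0.080). The values of PABPC4, PARN and PDE12 were 0.32, -0.48 and 0.37 on the log2 scale, none past the threshold (edgeR adjusted p = 0.017, 0.0097 and 0.0054).

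Of 22 RNA-binding proteins that recruit deadenylases to their targets, 3 rose and none fell, or 13.6% and 0% of the list against 6.37% and 8.14% of all genes, with a median log2 fold change of 0.33. The likelihood ratio test called 7 higher, a replicate block (the labels' replicate number as a further term) 6, and DESeq2 and limma voom 3 each. Without the first SGSS05-NS library 1 was called lower. ZFP36, which binds AU-rich elements, went from 1.08 and 0.514 CPM with DMSO to 4.24 and 3.66 CPM with SGSS05-NS (log2 fold change 2.29 ± 0.31 SE, edgeR adjusted p = 1.1e-04). Its relative ZFP36L2 went from 16.6 and 20.2 CPM to 33.0 and 31.4 CPM (0.81 ± 0.12 SE, edgeR adjusted p = 2.6e-04). CPEB2, a cytoplasmic polyadenylation element binding protein of the class that TOB proteins bind, went from 5.26 and 6.25 CPM to 13.1 and 13.3 CPM (1.20 ± 0.15 SE, edgeR adjusted p = 8.3e-05). CPEB4 had a log2 fold change of 0.50 ± 0.098 (SE) and missed the threshold (edgeR adjusted p = 0.0016).

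None of the 10 tested genes of decapping and 5′ decay passed the threshold by edgeR's quasi-likelihood test. Of all genes, 6.37% were called higher and 8.14% lower, and a count of 0 in a list this short lies near those shares. The list held 11 genes, with DCP1A not tested. At a looser adjusted p under 0.05, 4 genes of the list were higher and 2 lower. The same cutoff called 3728 of all 16468 genes higher and 3903 lower. Within the list the likelihood ratio test called 3 higher and 1 lower, DESeq2 3 higher and 1 lower, and limma voom 0. Leaving out any 1 library gave 1 call higher, or 2 without the second DMSO library. The decapping cofactors DCP1B and EDC4 were at 0.72 and 0.46 and the helicase DDX6 at 0.56, while the exonuclease XRN1 was at -0.47 (log2 fold changes, none past the threshold).

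**Figure D5:**
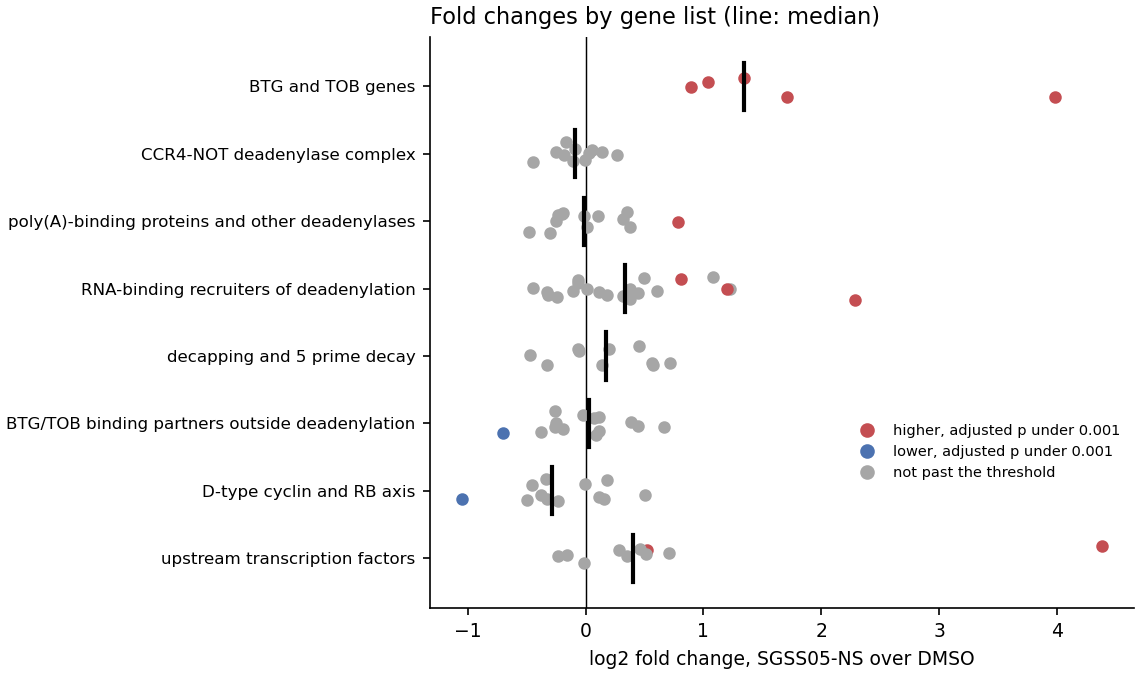
Log2 fold change of SGSS05-NS over DMSO (horizontal) for each tested gene of the family and of the 7 lists, coloured by call, with the median of each as a line and a vertical line at 0. The CCR4-NOT and decapping genes are all grey. The median of the family, 1.34, is that of genes selected on this contrast, so nothing is read from its place above the lists.

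Of 16 partners of BTG and TOB proteins outside deadenylation, 14 were tested, none rose and 1 fell by edgeR's quasi-likelihood test, or 0% and 7.14% of those tested against 6.37% and 8.14% of all genes. At a looser adjusted p under 0.05, 3 of the partners were higher and 3 lower. The same cutoff called 3728 of all 16468 genes higher and 3903 lower. The number called higher was 1 without the second DMSO library, without the first SGSS05-NS library, with the replicate number as a block, by the likelihood ratio test and by DESeq2, and 0 by limma voom. The one that fell was SKP2, the F-box protein that marks p27 for degradation and binds TOB1, at 146.6 and 137.5 CPM with DMSO and 88.1 and 86.6 CPM with SGSS05-NS (log2 fold change -0.70 ± 0.092 SE, edgeR adjusted p = 9.4e-05). PRMT1, the arginine methyltransferase bound by BTG1 and BTG2, was at 385.0 and 365.7 CPM with DMSO and 292.0 and 335.8 CPM with SGSS05-NS (-0.26 ± 0.10 SE, edgeR adjusted p = 0.052). The SMAD genes gave values in both directions, SMAD1 at 0.67 and SMAD3 at -0.38, and FHL1 was at 0.39 (log2 fold changes, none past the threshold).

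In the D-type cyclin and RB axis, on which the family is known to act, 12 of 13 genes were tested, none rose and 1 fell, or 0% and 8.33% of those tested against 6.37% and 8.14% of all genes, with a median log2 fold change of -0.28. At a looser adjusted p under 0.05, 1 gene of the axis was higher and 6 lower. The same cutoff called 3728 of all 16468 genes higher and 3903 lower. Within the axis the likelihood ratio test called 1 higher and 2 lower, DESeq2 0 higher and 2 lower, and limma voom 0 higher and 1 lower. The quasi-likelihood test called 2 lower without the first DMSO library or without the second SGSS05-NS library, and 3 without the first SGSS05-NS library. CDK6, the kinase partner of D-type cyclins, went from 827.0 and 1023 CPM with DMSO to 448.0 and 446.5 CPM with SGSS05-NS (-1.05 ± 0.11 SE, edgeR adjusted p = 2.0e-05). RB1 at -0.50, RBL2 at -0.46 and CCND3 at 0.50 missed the threshold (log2 fold changes).

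Of 12 transcription factors known to act on family members, 10 were tested, 2 rose and none fell, or 20% and 0% of those tested against 6.37% and 8.14% of all genes. Like the other lists, this one was chosen with earlier results known, and nothing is drawn from its share. The likelihood ratio test and the replicate block each called 4 higher, and 3 were called higher without the second DMSO library or without either SGSS05-NS library. EGR1, an immediate early factor, went from 1.55 and 1.46 CPM with DMSO to 23.2 and 39.7 CPM with SGSS05-NS (log2 fold change 4.38 ± 0.27 SE, edgeR adjusted p = 3.1e-07), the SGSS05-NS libraries differing widely. NFE2L2 at 0.71 and RELA at 0.46 missed the threshold (log2 fold changes, edgeR adjusted p = 0.0011 and 0.0020). CDKN1A, the cell cycle inhibitor p21, and MDM2, a ubiquitin ligase, had log2 fold changes of 4.68 ± 0.17 (SE) and 1.26 (edgeR adjusted p = 5.2e-09 and 5.4e-06). The values of BTG2, TOB1 and BTG3 lay between those of these 2 genes, and the values of TOB2 and BTG1 lay below that of MDM2.

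Over the 7 lists together, 91 of 97 genes were tested, 6 were called higher and 2 lower. Since the lists were chosen with earlier results known, their shares are no independent comparison with all genes. These are 6.59% and 2.20% of the genes tested, against 6.37% and 8.14% of all genes. With the replicate number as a block, 17 were called higher and 4 lower, or 18.7% and 4.40%, against 10.7% and 12.2% of all genes. The likelihood ratio test gave 18.7% and 5.49%, against 12.3% and 13.8% of all genes.

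For each member, the tested genes with the most similar profile were found by the Euclidean distance between log2 CPM over the 4 libraries, each taken relative to its own DMSO mean. Nearest to BTG2 were SESN2, a stress-induced sestrin, at 0.381, SERTAD1, a CDK4-binding protein, at 0.420, and MIR3189, a microRNA gene with 0 counts in both DMSO libraries, at 0.476. MIR3189 was at 1.13 and 0.978 CPM with SGSS05-NS, so that it passed the filter through that group alone and its distance rests on the prior count of 2 added before the logarithm.

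Nearest to TOB1 were ENSG00000268670 at 0.0285, AEN, an apoptosis-enhancing nuclease, at 0.0673 and STK17A, a death-associated kinase, at 0.0910. ENSG00000268670 was at 0.558 and 0.556 CPM with DMSO, so its distance rests in part on the prior count. AEN was at 71.9 and 68.1 CPM with DMSO and 227.9 and 238.3 CPM with SGSS05-NS.

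Nearest to BTG1 were ENSG00000261839 at 0.0445, PLEKHO2 at 0.0599 and RELL2 at 0.0610. Nearest to BTG3 were ENSG00000272983 at 0.0207, VASN at 0.0961 and RC3H1-DT at 0.0975. With DMSO, ENSG00000261839 was at 0.678 and 0.685 CPM, ENSG00000272983 at 0.598 and 0.471 CPM and RC3H1-DT at 0.359 and 0.257 CPM. At these low levels their distances rest in part on the prior count. Nearest to TOB2 were RNF6, a ubiquitin ligase, at 0.0300, CDH24, a cadherin, at 0.0392 and TIPARP, an ADP-ribosyltransferase, at 0.0404. BTG2 had no neighbour as close as those of the other 4 genes, for which all 3 neighbours lay within 0.0975. No member was among the 3 nearest of another.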

How the data were processed

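RNA from SY5Y cells (2 DMSO and 2 SGSS05-NS libraries) was analysed from raw counts of fragments per gene, which the authors deposited as written by STAR 2.4.2a after trimming with Trimmomatic 0.30 and alignment to hg19 (versions per the submitters' processing notes). Reverse-strand counts were taken, since 4.64% to 5.05% of strand-assigned fragments fell on the other strand. Summary rows of unassigned fragments were left out. Groups and replicate numbers came from the labels. Symbols, positions and exon lengths came from GENCODE 44 on GRCh37 for 55538 of 57820 identifiers. Transcripts, and the proteins translated from them, also came from GENCODE 44 on GRCh37. Promoters came from RefSeq on GRCh38.p14, and all 5 genes matched.

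Counts were filtered (filterByExpr), normalized (TMM) and tested with edgeR 4.0.16 (quasi-likelihood, R 4.3.3, Benjamini-Hochberg over 16468 genes, adjusted p under 0.001). The deposited counts were also tested with DESeq2 1.42.0 and limma 3.58.1 (voom). The code was tested on simulated data. Log2 CPM for profile distances used a prior count of 2. The members and lists were chosen with earlier results of these data known. Named genes are the 5 members, other BTG or TOB genes, genes overlapping a member or starting within 5000 bases of it, from each list the 4 smallest p-values, CNOT1, CNOT7, CNOT8, PABPC1, PRMT1, CDKN1A and MDM2, and each member's 3 nearest profiles; some items that this rule or the motif search covers are not reported here. The CRE half-site was added to the motifs after seeing the promoters. No 2 libraries were the same library deposited again: the chi-square statistic divided by its degrees of freedom was 8.76 between the DMSO and 11.8 between the SGSS05-NS libraries.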

Additional observations from a re-analysis of the deposited data

Results flagged for a closer look

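Fragments on the strand opposite to the genes lay outside the comparisons above. At TOB1 they had a mean of 1.12 CPM in the SGSS05-NS libraries, above the DMSO libraries, with 25 and 26 counts against 23 and 14. TOB1-AS1 overlaps TOB1 on that strand. At BTG3 these counts were between 17 and 20 in all 4 libraries, while the counts on the gene's own strand were between 399 and 529 with DMSO and between 1057 and 1162 with SGSS05-NS. The other 3 genes had between 0 and 7.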

How the results depend on the processing

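The log2 fold changes of the 5 members were, over the alternatives that kept all libraries, between 0.85 and 0.93 for BTG1, 3.95 and 4.02 for BTG2, 1.28 and 1.38 for BTG3, 1.67 and 1.74 for TOB1, and 0.99 and 1.07 for TOB2. Counts of calls moved with the test and the threshold. Against 1049 genes higher and 1341 lower of all genes, and 6 and 2 of the listed genes, the likelihood ratio test gave 2022 and 2267 (listed genes 17 and 5), no filter 2034 and 2570 (20 and 8), an adjusted p under 0.01 2321 and 2616 (21 and 7), and one under 0.05 3728 and 3903 (26 and 16). DESeq2 gave 1126 genes higher and 1576 lower of all genes, and 11 and 4 of the listed genes. Leaving out 1 library at a time gave 1037 to 1279 genes higher and 1322 to 1649 lower, and 7 to 12 listed genes higher and 2 to 6 lower; 12 were higher without DMSO replicate 2, 10 higher and 6 lower without SGSS05-NS replicate 1, and 4 lower without SGSS05-NS replicate 2. With the replicate block, 1758 genes were higher, and of the listed genes 17 were higher and 4 lower. Same-numbered libraries had deviations correlated at 0.0526 over 16468 genes. With 2 libraries a group, this value cannot show whether same-numbered cultures were handled together. The cause of these shifts was not tested, beyond the looser thresholds themselves.

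With the longest coding transcript as length, shares of the family were 26.5% and 15.2% for BTG1 (DMSO and SGSS05-NS), 33.1% and 26.2% for BTG3, 10.1% and 6.46% for TOB2, 24.9% and 25.2% for TOB1, and 27.0% for BTG2 with SGSS05-NS. With counts without regard to strand, BTG1 held 15.9% and BTG3 19.8% with SGSS05-NS. With 2 libraries a group, an exact permutation test cannot reach 0.05. The values of BTG2-DT, BTG1-DT and TOB2P1 rest on at most 44 counts a library, which limits their precision.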
